A study of Rattus norvegicus with 6 samples.

Results

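The nuclei described here are GABAergic neurons of the rat brain that carry transcripts of Tshz1, Casz1, Chst9 and Otof, genes used to set a rare kind of striatal projection neuron and its relatives apart from the ordinary medium spiny neurons. A nucleus was taken when it held at least 5 UMIs (unique molecular identifiers, 1 per counted transcript) of these 4 genes together, at least 5 UMIs of the neuronal genes Snap25, Syt1 and Rbfox3, and at least 1 UMI of Gad1 or Gad2, which make GABA. It was left out when it held any UMI of Slc17a7 or Slc17a6, the vesicular glutamate transporters, or more than 1 UMI of Drd2 and Adora2a, markers of D2 spiny neurons. Of 73649 nuclei with at least 500 UMIs, 250 to 5000 genes and at most 5% mitochondrial UMIs, 328 met the rule, which is 0.445% of all nuclei and 1.95% of the GABAergic neurons. They are called Tshz1/Casz1/Chst9/Otof nuclei below.

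The study sequenced nuclei of male wild-type Wistar rats, 12 weeks old, 48 h after a filament was placed to close the right middle cerebral artery for good (MCAO) or after a sham operation. Coronal tissue around the greatest extent of the lesion was divided by hemisphere, and the rats of a group were pooled. Sham L and Sham R are the left and right hemispheres of the same 4 sham-operated rats. The rats with moderate infarcts (mMCAO, 3 rats) and those with severe infarcts (sMCAO, 4 rats) each gave a left library, contralateral to the lesion (contra), and a right library on the side of the lesion (ipsi). The 6 libraries form 3 groups of 2, which differ in side within Sham and in severity within the MCAO groups, so that p-values measure only the spread between such libraries. Nuclei are not replicates, and every test below was made on the UMIs summed per library.

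Most neurons of the striatum are medium spiny neurons, which divide into D1 neurons with the dopamine receptor Drd1 and D2 neurons with Drd2. A further, minor kind, the eccentric spiny projection neurons, is known from single-cell surveys by Casz1, Otof and Tshz1. Genes of this set also mark neurons outside the main body of the striatum: Tshz1 and Foxp2 mark the intercalated cells of the amygdala, small GABAergic groups that gate its output, and Chst9 with Drd3 marks granule cells of the islands of Calleja in the ventral striatum.

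Of the 590 nuclei with 5 or more UMIs of the 4 selection genes, 558 were neurons, 368 of these had Gad1 or Gad2, 342 of these had no vesicular glutamate transporter, and 328 passed the limit on Drd2 and Adora2a. Just inside the threshold lay 117 nuclei with exactly 5 selection UMIs and just outside it 193 nuclei that met the rest of the rule with 4. The median was 6 selection UMIs and the highest 22. Sham L gave 39 of the nuclei, Sham R 19, mMCAO contra 93, sMCAO contra 74, mMCAO ipsi 36 and sMCAO ipsi 67. A doublet score, set to mark 5% of the nuclei in each library, marked 31 of the 328 (9.45%) as possible doublets. They were uneven, with 2 of 39 nuclei in Sham L, 0 of 19 in Sham R, 8 of 93 in mMCAO contra, 14 of 74 in sMCAO contra, 0 of 36 in mMCAO ipsi and 7 of 67 in sMCAO ipsi. Between 1 and 10 of these nuclei per library had a barcode that also occurred in another library, and no barcode was taken in more than 1 library.

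Chst9, a sulfotransferase that acts on N-acetylgalactosamine, dominated the choice. It was the leading selection gene in 221 nuclei (67.4%) and gave 58.5% of all selection UMIs. Tshz1, a zinc finger transcription factor, was detected in 240 nuclei but led in 52. Otof, which encodes the calcium sensor otoferlin, led in 21 and was detected in 156, and Casz1, a zinc finger transcription factor, led in 11 and was detected in 84. In the remaining 23 nuclei the leading genes were tied. The genes overlapped within nuclei: Tshz1 and Chst9 were found together in 170 nuclei, Chst9 and Otof in 105, Tshz1 and Casz1 in 67, and Casz1 and Chst9 in 33. A single gene met the rule in 46 nuclei, while 172 nuclei had 2 of the genes, 102 had 3 and 8 had all 4. Chst9 led in 60.2% to 75.7% of the nuclei in every library.

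Other markers set these nuclei apart from both kinds of medium spiny neuron, with levels given in CPM, a gene's UMIs divided by all UMIs of the same summed nuclei and scaled to the same total in every library. For this description, D1 nuclei (342) and D2 nuclei (1278) were gated from the same GABAergic neurons by Pde10a, Rgs9 and Rarb together with Drd1, Tac1 and Pdyn or with Drd2 and Adora2a, and had at most 1 selection UMI. Foxp2, a forkhead transcription factor that the rule did not use, was at 2417 and 3597 CPM in Sham L and Sham R, 2836 and 2840 CPM in mMCAO and sMCAO contra, and 3192 and 3375 CPM in mMCAO and sMCAO ipsi. Pooled over the libraries Foxp2 stood at 3006 CPM, against 1278 CPM in D1 nuclei, 527 CPM in D2 nuclei and 302 CPM in nuclei with glutamate transporters, and its levels did not overlap between the 3 GABAergic classes. Erbb4, the neuregulin receptor, was at 9239 CPM against 1758 and 459 CPM in D1 and D2 nuclei. Adarb2, an RNA-editing enzyme relative and a marker of interneurons, was at 2872 CPM against 920 and 295 CPM. All GABAergic neurons with at most 1 selection UMI, which include the D1 and D2 nuclei, held 520 CPM of Foxp2, 4395 CPM of Erbb4 and 1964 CPM of Adarb2, so the gap was narrower against that wider set for Erbb4 and Adarb2. Pbx3, a homeodomain cofactor, was at 1313 CPM against 782 and 519 CPM. Meis2, a homeodomain factor of striatal neurons, differed little, at 1790 CPM against 1433 and 1495 CPM. These are descriptions of nuclei chosen by their transcripts and carry no test.

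The shared programme of medium spiny neurons was at lower levels than in the D1 and D2 nuclei, which were gated on some of its genes. Foxp1 was at 247 CPM, against 1285 CPM in D1 and 1706 CPM in D2 nuclei. Rarb, the retinoic acid receptor, was at 894 CPM against 2548 and 2416 CPM, and Pde10a, the striatal phosphodiesterase, at 1049 CPM against 2931 and 3276 CPM, although both served to gate the D1 and D2 nuclei. Ppp1r1b, which encodes DARPP-32, was at 17.6 CPM against 141 and 107 CPM. The 13 genes found of the spiny list summed to 5553 and 6075 CPM in Sham, 5883 and 5459 CPM contra and 5092 and 4864 CPM ipsi, and to 11651 CPM in D1 and 12365 CPM in D2 nuclei over all libraries. Over all libraries the sum was 5395 CPM in these nuclei and 5148 CPM in the GABAergic neurons with at most 1 selection UMI, a level close to theirs. Drd1 was at 38.7 CPM and Tac1, the substance P precursor, at 21.1 CPM, compared with 211 and 272 CPM in D1 nuclei, where Drd1 and Tac1 were gate genes. Penk, the enkephalin precursor of D2 neurons, was at 45.8 CPM against 169 CPM in D2 and 4.54 CPM in D1 nuclei.

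Markers of eccentric spiny neurons were present only in part. The 9 genes of the eccentric list, 3 of them selection genes, summed to 5051 CPM against 1871 CPM in D1 and 1140 CPM in D2 nuclei, and 3414 of the 5737 UMIs came from Foxp2. Of the list genes that the rule did not use, Cacng5, a subunit that accompanies calcium channels and glutamate receptors, was at 89.8 CPM against 13.0 and 37.5 CPM, Col11a1, a fibrillar collagen, at 167 CPM against 81.0 and 70.5 CPM, and Olfm3, a secreted olfactomedin, at 912 CPM against 447 and 462 CPM. Pcdh8, a protocadherin, reached 26.4 CPM, and Npy1r, the neuropeptide Y receptor, 1.76 CPM from 2 UMIs in 1 library. The 7 genes of the intercalated amygdala list, which share Foxp2 and Tshz1 with the eccentric list, summed to 6769 CPM against 3801 and 2754 CPM. Of the islands of Calleja list, Chst9 gave 1356 of 1440 UMIs, and the receptor Drd3 was at 15.8 CPM, against 27.2 CPM in D1 nuclei. The lists therefore did not settle on 1 of these cell types, and the selection genes are kept as the name.

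**Figure D1:**
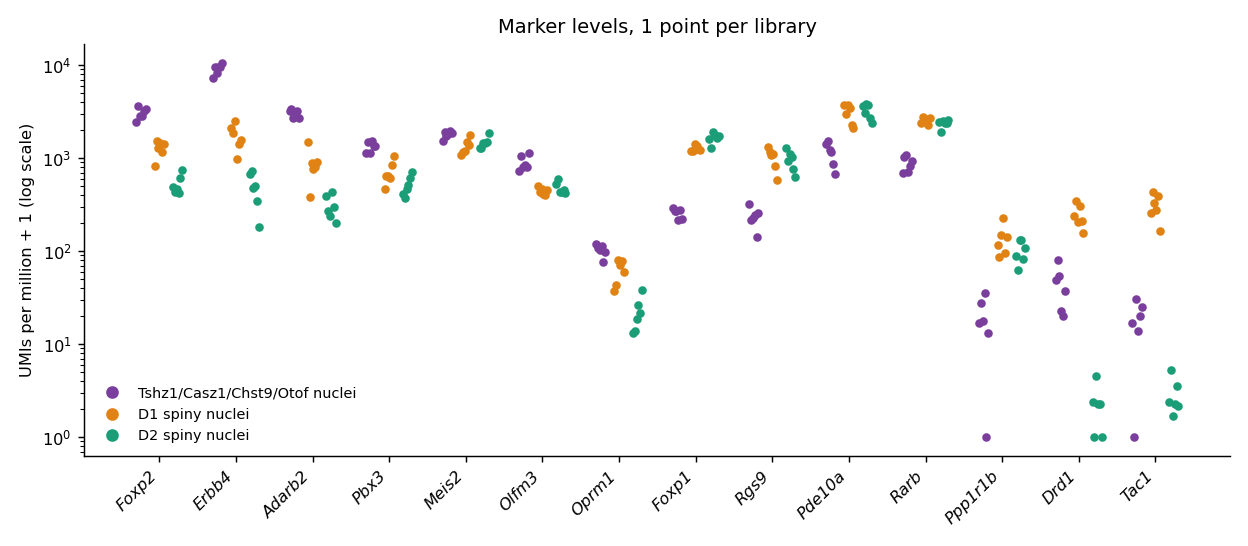
Levels of 14 marker genes in CPM plus 1 (log axis), with 1 point per library, in Tshz1/Casz1/Chst9/Otof nuclei (purple), D1 nuclei (orange) and D2 nuclei (green). Foxp2, Erbb4, Adarb2 and Olfm3 lie highest in the purple points, and Foxp1, Pde10a, Rarb and Ppp1r1b lie lowest in them.

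The genes outside the marker lists described next were picked for their large ratios to both D1 and D2 nuclei, so that their direction follows from the choice. St6galnac3, a sialyltransferase, was at 1046 CPM and 100 CPM in D1 and 99.6 CPM in D2 nuclei. Grm8, a metabotropic glutamate receptor that inhibits transmitter release, was at 2165 CPM against 221 and 301 CPM, and Vwc2l, a secreted factor with a von Willebrand C domain, at 534 CPM against 36.9 and 46.7 CPM. Eya2, a transcriptional cofactor, stood at 238 CPM against 15.6 and 7.27 CPM. Dach1, a transcriptional cofactor, was lower, at 120 CPM against 1009 and 1060 CPM, as were Slit3, a secreted guidance cue, at 263 CPM against 1314 and 1200 CPM, and its receptor Robo2, at 579 CPM against 2091 and 2012 CPM.

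The 328 nuclei were not uniform. Clustering on genes other than the rule genes gave 5 clusters, which are described here by their leading genes and are not named as cell types. Cluster 1 (126 nuclei) was led by Eya2, Vwc2l, Sntb1, Grm8 and the opioid receptor Oprm1, and held Chst9 at 1973 CPM and Rarb at 1211 CPM. Cluster 2 (74 nuclei) was led by Adamtsl1, Sulf1, Zfp804b and the relaxin receptor Rxfp1, held the highest Chst9 level of the 5, 2598 CPM, had no Casz1 UMI and had little Rarb, 58.0 CPM. These clusters together held 200 of the 328 nuclei, and Foxp2 stood at 4069 CPM in cluster 1 and at 3619 CPM in cluster 2.

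Cluster 4 (38 nuclei) had the highest Foxp2, Pde10a and Drd1 levels of the 5, at 4546, 3251 and 112 CPM, with Rarb at 1666 CPM. Chst9 was at 14.9 CPM there, from 2 UMIs, so that the other selection genes had to meet the rule, with Casz1 at 469 CPM, Otof at 484 CPM and Tshz1 at 677 CPM. The leading genes were Prkd1, the receptor tyrosine kinase Alk, Spon1, Kremen1 and Epha4. Cluster 3 (62 nuclei) had the lowest Foxp2 level, 1256 CPM, and was led by the glypican Gpc5, the kainate receptor subunit Grik1, Nxph1, the secreted factor Tafa1 and Nwd2. Its nuclei were deeper than the rest, with a median of 4794 UMIs against 2772.5 UMIs over all 328. Cluster 5 (28 nuclei) was led by Mbp and Bcas1, which are myelin lineage genes, together with Zeb2, Homer1 and Qk. Mbp stood at 530 CPM there and at 11.9 to 71.5 CPM in the other clusters, and whether these nuclei held RNA of oligodendrocytes was not tested.

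The clusters occurred in every library. Cluster 1 made up 33.3% and 31.6% of the nuclei in Sham L and Sham R, 37.6% and 36.5% contra and 36.1% and 47.8% in mMCAO and sMCAO ipsi. Cluster 3 made up 23.1% and 26.3% in Sham, 17.2% and 25.7% contra and 11.1% and 13.4% ipsi, so that both ipsilateral libraries held a smaller share than the other 4. These shares rest on 4 and 9 cluster 3 nuclei ipsilaterally. Cluster 4 made up 15.4% and 15.8% in Sham, 9.68% and 12.2% contra and 13.9% and 8.96% ipsi, so that both Sham libraries held a larger share than the other 4, from 6 and 3 nuclei. Cluster 5 ranged from 2.56% to 11.8%, and its groups overlapped.

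**Figure D2:**
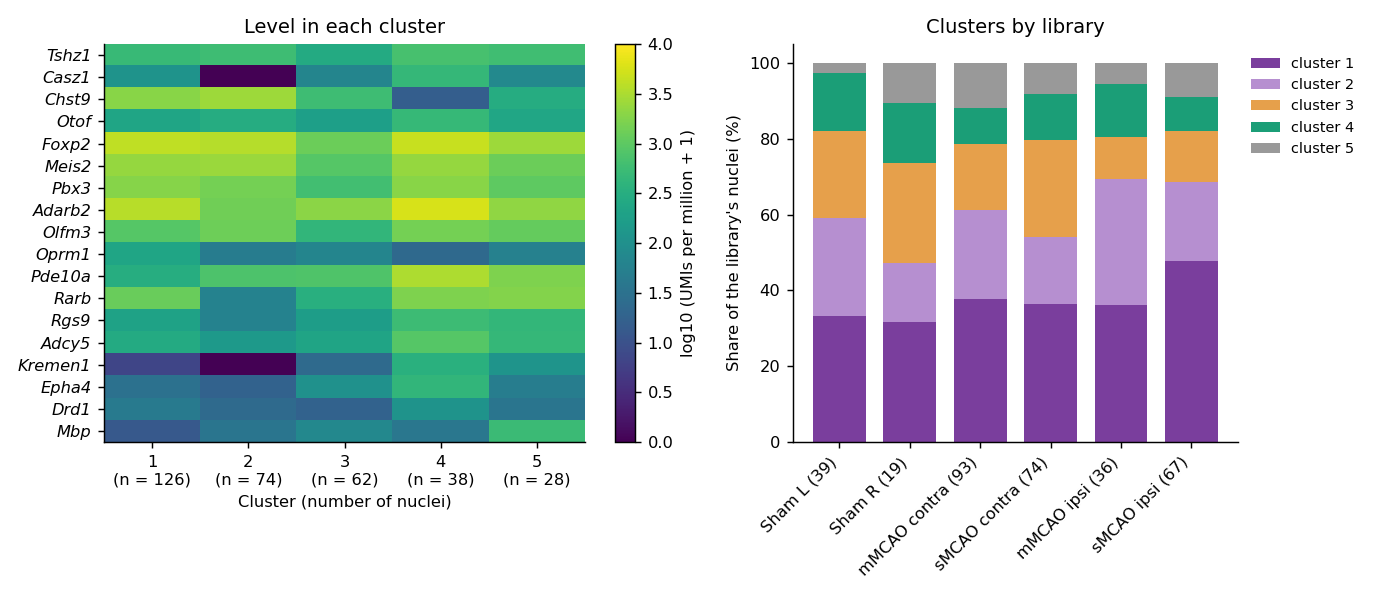
Left, levels of marker genes in the 5 clusters of Tshz1/Casz1/Chst9/Otof nuclei as log10 of CPM plus 1 (colour). Right, share of each library's nuclei in each cluster (%, stacked bars, number of nuclei in parentheses); cluster 3 takes 11.1% and 13.4% in the ipsilateral libraries.

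How common the nuclei were after stroke was asked first. They made up 0.297% of all nuclei in Sham L (95% exact binomial interval 0.211% to 0.406%) and 0.139% in Sham R (0.0840% to 0.218%). In mMCAO contra the share was 0.642% (0.518% to 0.786%) and in sMCAO contra 0.686% (0.539% to 0.860%), both above the intervals of the Sham libraries. On the side of the lesion the libraries parted: the share was 0.278% (0.195% to 0.385%) in mMCAO ipsi, within the Sham L interval, and 0.773% (0.60% to 0.981%) in sMCAO ipsi. The intervals cover counting error only.

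The mean share was 3.04 times the Sham mean contralaterally and 2.41 times ipsilaterally, where the spread between the 2 libraries was 1.60 in the same units (SD). With 2 libraries against 2, the smallest two-sided p of an exact permutation test is 0.33, so the shares were not tested. Without Sham L the ratios were 4.76 and 3.77, without Sham R 2.23 and 1.77, and without sMCAO ipsi the ipsilateral ratio was 1.27.

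Measured against GABAergic neurons, the share was 1.18% and 0.608% in Sham L and Sham R, 2.52% and 2.80% in mMCAO and sMCAO contra, and 1.39% and 4.46% in mMCAO and sMCAO ipsi. The GABAergic neurons themselves were 25.2% and 22.9% of all nuclei in Sham, 25.5% and 24.5% contra and 19.9% and 17.3% ipsi. All neurons were 80.3% and 83.4% in Sham, 74.2% and 74.8% contra and 68.8% and 37.1% ipsi. The shares in sMCAO ipsi were thus taken of the smallest set of neurons. The order of the libraries was the same among the 3 gated classes, where these nuclei made up 12.9% and 9.69% of the sum of Tshz1/Casz1/Chst9/Otof, D1 and D2 nuclei in Sham, 17.6% and 21.1% contra, and 12.2% and 24.3% ipsi, except that mMCAO ipsi fell below Sham L. In sMCAO ipsi, 67 such nuclei stood beside 73 D1 and 136 D2 nuclei, and in mMCAO ipsi 36 beside 63 and 197. Sham L held 39, 51 and 213, and Sham R 19, 19 and 158. Compared with D1 nuclei alone, these nuclei were fewer in both ipsilateral libraries and Sham L, equal in Sham R and more numerous contralaterally. The D1 share of all nuclei was 0.389% and 0.139% in Sham, 0.587% and 0.472% contra and 0.487% and 0.842% ipsi. That D1 share was higher in every MCAO library than in either Sham library. The share of Tshz1/Casz1/Chst9/Otof nuclei was not, since mMCAO ipsi (0.278%) lay below Sham L (0.297%).

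Depth differed between the libraries. The nuclei had a median of 2446 and 1711 UMIs in Sham L and Sham R, 2643 and 2436.5 contra, and 2545.5 and 4020 in mMCAO and sMCAO ipsi, and a deeper nucleus reaches 5 selection UMIs more readily. The shallowest library, Sham R, had the lowest share and the deepest, sMCAO ipsi, the highest. With every nucleus thinned to 2000 UMIs and shallower nuclei left out, 15, 2, 34, 17, 13 and 19 nuclei met the rule in Sham L, Sham R, mMCAO contra, sMCAO contra, mMCAO ipsi and sMCAO ipsi, of 9440, 8247, 10446, 7410, 8781 and 4411 nuclei. The thinned shares were 0.159% and 0.0243% in Sham, 0.326% and 0.229% contra and 0.148% and 0.431% ipsi. The share was again highest in sMCAO ipsi, but its interval (0.2595% to 0.6718%) overlapped that of mMCAO contra (0.2255% to 0.4545%). The share in mMCAO ipsi lay below Sham L, from 13 against 15 nuclei. The contralateral libraries changed order, with mMCAO contra now above sMCAO contra. How far dissection, which sets the amount of ventral striatum and amygdala in a library, moved the shares was not tested.

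**Figure D3:**
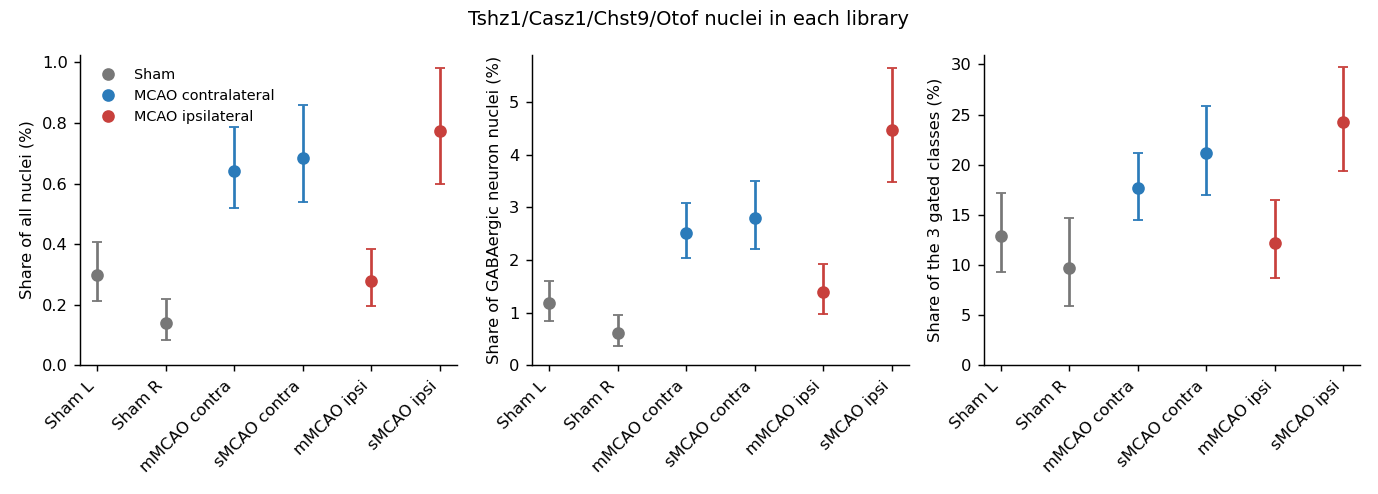
Share of Tshz1/Casz1/Chst9/Otof nuclei in each library (%), among all nuclei, among GABAergic neuron nuclei and among the 3 gated classes (these, D1 and D2 nuclei), with 95% exact binomial intervals that cover counting error only. In the first panel the contralateral libraries (0.642% and 0.686%) and sMCAO ipsi (0.773%) lie above both Sham libraries (0.297% and 0.139%), and mMCAO ipsi (0.278%) does not.

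The next question was which genes differed in these nuclei on the side of the lesion. Few did. In the quasi-likelihood test of edgeR with Benjamini-Hochberg adjustment, 18 of 3713 genes tested passed an adjusted p of 0.05 with a log2 fold change of at least 0.6 in ipsilateral MCAO against Sham (0.485% of the genes), 3 of them higher (0.0808%) and 15 lower (0.404%). The median log2 fold change of all genes was 0.03. The summed nuclei held 126588 and 37531 UMIs in Sham, 302913 and 231719 contra and 105256 and 331831 ipsi. At this depth the same test recovered 69% of simulated 4-fold changes and 16% of simulated 2-fold changes, so smaller differences were mostly not detectable.

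Of the 10 named lower genes, Ptprd, Dpp10 and Cdh12 kept their call without any 1 of the libraries. Ptprd, a receptor phosphatase that organises synapses, was at 3721 and 4689 CPM in Sham L and Sham R, 3308 and 3250 CPM contra, and 1558 and 1838 CPM in mMCAO and sMCAO ipsi. Both ipsilateral libraries lay below the other 4, and the log2 fold change against Sham was -1.30 ± 0.17 (SE; edgeR adjusted p = 3.36e-06). Dpp10, which modulates A-type potassium channels, was at 3902 and 7141 CPM in Sham, 3106 and 2671 CPM contra and 2033 and 2191 CPM ipsi, a log2 fold change of -1.36 ± 0.19 (edgeR adjusted p = 1.42e-05). Cdh12, a cadherin, was at 798 and 1119 CPM in Sham, 525 and 755 CPM contra and 285 and 184 CPM ipsi. It changed by -2.09 ± 0.27 (edgeR adjusted p = 3.36e-06), and 25 of its 42 UMIs in Sham R lay in 1 nucleus. The nuclei of cluster 1 alone gave -0.61 for Ptprd, -0.57 for Dpp10 and -1.05 for Cdh12, and those with at least 8 selection UMIs -0.23, -0.32 and -2.05, none of them called. With at least 3 selection UMIs, Ptprd (-1.01) and Dpp10 (-1.27) were called and Cdh12 (-0.73) was not.

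Pde10a, the phosphodiesterase that breaks down cyclic nucleotides in spiny neurons, was at 1430 and 1519 CPM in Sham, 1218 and 1165 CPM contra and 874 and 669 CPM ipsi (log2 fold change -0.99 ± 0.20, edgeR adjusted p = 0.00602). It was the gene called among the 22 tested members of the dopamine, opioid and cyclic AMP signalling list, whose median log2 fold change was -0.35, where 0.485% of all genes were called. In D1 nuclei Pde10a was at 3691 and 2983 CPM in Sham, 3747 and 3475 CPM contra and 2259 and 2130 CPM ipsi, and in D2 nuclei at 3646 and 3067, 3797 and 3686, and 2684 and 2388 CPM. Those levels depend on the gates, which used Pde10a itself. Slit3 was at 482 and 293 CPM in Sham, 307 and 298 CPM contra and 143 and 151 CPM ipsi (log2 fold change -1.56 ± 0.29, edgeR adjusted p = 0.00205). It was the 1 gene called among the 57 tested of a list of neurexins, semaphorins, ephrins, Slit and Robo genes and similar adhesion and guidance families, of which 21 had a fold above 0 and the median log2 fold change was -0.24, where 0.485% of all genes were called. That list does not hold Ptprd, Cdh12 or Kirrel3, which also encode adhesion proteins and were called.

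Chrm3, the muscarinic M3 receptor, was at 537 and 666 CPM in Sham, 452 and 272 CPM contra and 181 and 214 CPM ipsi (log2 fold change -1.53 ± 0.28, edgeR adjusted p = 0.00205). Ntrk2, the receptor of brain-derived neurotrophic factor, was at 861 and 746 CPM in Sham, 739 and 466 CPM contra and 418 and 392 CPM ipsi (-1.07 ± 0.24, edgeR adjusted p = 0.0243). Htr2c, the serotonin 2C receptor, was higher, at 94.8 and 133 CPM in Sham, 178 and 246 CPM contra and 266 and 316 CPM ipsi (1.49 ± 0.35, edgeR adjusted p = 0.0358). Hs6st3, which sulfates heparan sulfate chains, changed by -1.07 ± 0.25 (edgeR adjusted p = 0.0297), from 1612 and 1226 CPM in Sham to 1017 and 512 CPM ipsi.

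Several calls rested on Sham L. Without that library Pde10a (-0.92, edgeR adjusted p = 0.337), Slit3 (-0.88), Chrm3 (-1.61), Ntrk2 (-0.80), Htr2c (1.26) and Hs6st3 (-0.69) kept their sign and were no longer called, and without sMCAO ipsi Pde10a (-0.72), Ntrk2 (-0.96), Htr2c (1.36) and Hs6st3 (-0.51) were not called either. Sham R alone then stood for Sham, with 19 nuclei. Other settings also ended calls. Htr2c and Ntrk2 were not called without predicted doublets, with no filter on low counts or in DESeq2, nor was Hs6st3 in DESeq2. Pde10a, Ntrk2 and Hs6st3 were not called with at least 8 selection UMIs, nor were Pde10a and Hs6st3 without the deepest nucleus of each library. In cluster 1 alone, Pde10a, Chrm3 and Ntrk2 were not called. Pde10a was not called with no filter on low counts, nor Chrm3 with at least 3 selection UMIs.

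Gpc5 and Nwd2, both leading genes of cluster 3, gave the largest decreases among the named genes. Gpc5, a heparan sulfate proteoglycan of the cell surface, was at 1635 and 346 CPM in Sham, 294 and 397 CPM contra and 124 and 142 CPM ipsi, a log2 fold change of -3.14 ± 0.34 (edgeR adjusted p = 1.37e-07). Of its 207 UMIs in Sham L, 123 came from 1 nucleus, and without Sham L the change was -1.24 and was not called. Nwd2, a gene with NACHT and WD domains, was at 269 and 107 CPM in Sham, 85.8 and 60.4 CPM contra and 9.50 and 12.1 CPM ipsi, from 34, 4, 26, 14, 1 and 4 UMIs. Its log2 fold change was -4.26 ± 0.56 (edgeR adjusted p = 4.5e-06), and -3.06 without Sham L, which was not called. Nwd2 was not called in DESeq2 either. The share of cluster 3 was lower in the ipsilateral libraries, as given above, and its part in these differences was not tested. Gpc5 stood at 1087 CPM in cluster 3, from 380 UMIs, and at 103 CPM over the other nuclei. That leaves few UMIs for a fit on cluster 1 alone, which gave -3.80 ± 0.84 (edgeR adjusted p = 0.00209). Gpc5 was not called with at least 3 (-0.74) or at least 8 (-3.55) selection UMIs.

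Of the 3 genes called higher, the 2 with the largest fold changes were features that the files list without a gene symbol, under AY172581, the name of the sequence record of the rat mitochondrial genome. The files do not pair them with gene names, and the limit on mitochondrial UMIs counted only the genes of the Mt- series. The feature AY172581.24 was at 545 and 506 CPM in Sham, 188 and 388 CPM contra and 2698 and 3553 CPM ipsi (log2 fold change 2.53 ± 0.24, edgeR adjusted p = 8.13e-09), and was detected in 26 of 36 nuclei in mMCAO ipsi and in 64 of 67 in sMCAO ipsi. In mMCAO ipsi, 149 of its 284 UMIs came from 1 nucleus. AY172581.9 was at 103 and 26.6 CPM in Sham, 26.4 and 64.7 CPM contra and 295 and 380 CPM ipsi (2.02 ± 0.38, edgeR adjusted p = 0.003), and 3.79 without Sham L, which was not called. DESeq2 did not call AY172581.9 either, and AY172581.24 was not called with at least 8 selection UMIs. AY172581.24 was at 934 and 2782 CPM in mMCAO and sMCAO ipsi in D1 nuclei and at 625 and 2244 CPM in D2 nuclei, against at most 844 and 478 CPM in their other libraries, and the test of a difference from either class did not pass for this feature (edgeR adjusted p = 0.396 and 0.351). The mitochondrial genes of the Mt- series summed to 790 and 1119 CPM in Sham, 670 and 1083 CPM contra and 1036 and 1528 CPM ipsi in these nuclei.

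The other called genes were Pcsk2, a prohormone convertase (log2 fold change -0.95), Kirrel3, a cell adhesion protein (-0.79), Nrg3, a ligand of Erbb4 (-0.76, from 4037 and 3970 CPM in Sham to 2508 and 2311 CPM ipsi), Tafa1 (-1.71) and ENSRNOG00000011132, a feature without a symbol (-1.49). Tafa1 and ENSRNOG00000011132 fell outside the rule for named genes and are given to complete the 18.

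**Figure D4:**
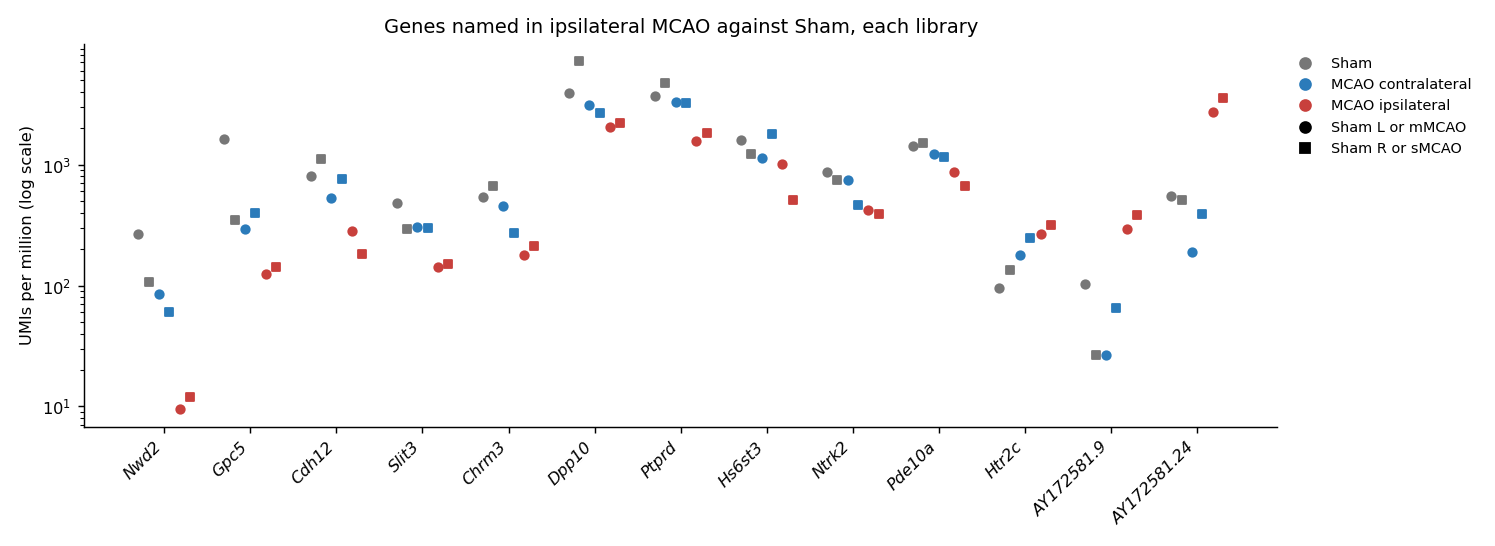
Level in CPM (log axis) of the 13 genes named in ipsilateral MCAO against Sham, with 1 point per library (grey Sham, blue contralateral, red ipsilateral; circles Sham L and mMCAO, squares Sham R and sMCAO). The red points lie below the grey ones for the first 10 genes, from Nwd2 to Pde10a, and above them for Htr2c, AY172581.9 and AY172581.24.

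None of the lists of injury response genes had a called member in these nuclei, against 0.485% of all genes, but few of their genes were abundant enough to be tested. Of 10 heat shock genes tested none was called, with a median log2 fold change of 0.35, and likewise none of 2 activity-regulated genes (0.66), 6 injury and stress genes (-0.16), 10 genes of glycolysis and hypoxia (0.06) and 4 of oxidative phosphorylation (0.01), beside 0.03 for all genes. Of the 28 genes of the interferon and antigen presentation list 2 were tested and neither was called: Stat3, a transcription factor of cytokine signalling, from 1 and 0 UMIs in Sham, 7 and 7 contra and 10 and 19 ipsi (edgeR adjusted p = 0.352), and the kinase Jak2 (log2 fold change -0.41). The whole list summed to 166 and 133 CPM in Sham, 195 and 220 CPM contra and 238 and 235 CPM ipsi, with both ipsilateral libraries above the other 4. Its sum was also highest ipsilaterally in D1 nuclei (317 and 264 CPM) and D2 nuclei (251 and 253 CPM), and it was not tested. Of 20 glutamate receptor genes tested none was called (median -0.14); Grin2a, an NMDA receptor subunit, had the smallest adjusted p of them, with 1477 and 799 CPM in Sham and 561 and 805 CPM ipsi (log2 fold change -0.83, edgeR adjusted p = 0.106). None of 15 GABA and glycine genes was called, and 11 of them had a fold above 0 (median 0.30). None of 28 potassium channel genes (median -0.16), 23 sodium and calcium channel genes (-0.22) or 21 striatal transcription factors (0.12) was called either. Across all 3713 genes, 327 had an unadjusted edgeR p under 0.05 in this comparison, and 18 were called after the adjustment and the limit on the fold.

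Few marker genes of the nuclei could be tested, and with 0.485% of all genes called the counts for such short lists say little. Of the eccentric list 4 genes were abundant enough to be tested, and none was called, with a median log2 fold change of 0.19. Of the spiny list 10 were tested, and Pde10a was called (median -0.29). Erbb4 was at 7283 and 9512 CPM in Sham, 8223 and 9520 CPM contra and 9444 and 10620 CPM ipsi (log2 fold change 0.25 ± 0.15, edgeR adjusted p = 0.659).

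Ribosomal protein genes were too sparse to be tested one by one. Their sum was 545 and 453 CPM in Sham, 733 and 824 CPM contra and 865 and 1947 CPM in mMCAO and sMCAO ipsi. The D1 nuclei (537, 447, 671, 846, 979 and 1400 CPM in the same order) and D2 nuclei (460, 529, 665, 654, 694 and 1360 CPM) had their highest sum in sMCAO ipsi as well, and the sum was not tested.

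Markers of myeloid cells, of oligodendrocytes and of glutamatergic neurons were low, and their sums set both ipsilateral libraries apart from the other 4. For oligodendrocyte and glutamatergic markers, Sham and contralateral libraries overlapped. The sums were not tested. The 10 myeloid markers summed to 0 and 0 CPM in Sham, 3.30 and 25.9 CPM contra and 143 and 112 CPM ipsi, from 59 UMIs in all, with Ptprc the most abundant (17 UMIs) and C1qa at 0. Few nuclei carried them: 37 of the 59 UMIs lay in 6 nuclei of cluster 5, and 1 nucleus held 14 of the 37 UMIs in sMCAO ipsi and 1 nucleus 9 of the 15 in mMCAO ipsi. Outside cluster 5 the sum was 0 and 0 CPM in Sham, 3.78 and 9.87 CPM contra and 44.8 and 53.7 CPM ipsi. D2 nuclei showed 65.1 and 99.0 CPM of them ipsilaterally. The 9 oligodendrocyte markers were at 229 and 346 CPM in Sham, 215 and 419 CPM contra and 181 and 166 CPM ipsi, with Mbp giving 116 of 278 UMIs, so that both ipsilateral libraries lay below the other 4. The 8 astrocyte markers were at 806 and 400 CPM in Sham, 399 and 457 CPM contra and 399 and 509 CPM ipsi, of which Slc4a4 gave 431 of 555 UMIs. The 8 glutamatergic markers were at 245 and 107 CPM in Sham, 149 and 73.4 CPM contra and 57.0 and 69.3 CPM ipsi. Both ipsilateral libraries again lay below the other 4. Sv2b gave 64 of the 126 UMIs, and the rule itself kept Slc17a6 and Slc17a7 at 0. The part of such RNA in the called genes was not tested.

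The ipsilateral and contralateral hemispheres came from the same pools of rats. The main fit had no term for the pool, so the values here do not use that pairing, and a fit with the pool as a block is given below. Of 3713 genes, 10 passed the edgeR test (0.269%), 3 higher and 7 lower ipsilaterally. AY172581.24 (log2 fold change 3.48 ± 0.22, edgeR adjusted p = 6.23e-14) and AY172581.9 (3.01 ± 0.31, edgeR adjusted p = 3.58e-08) were again the largest increases among the called genes. Cdh12 (-1.55 ± 0.24, edgeR adjusted p = 0.000279), Ptprd (-0.94 ± 0.16, edgeR adjusted p = 0.000763), Nwd2 (-2.64 ± 0.59, edgeR adjusted p = 0.0263) and Hs6st3 (-1.04 ± 0.23, edgeR adjusted p = 0.0263) were lower here as they were against Sham, with the same ipsilateral libraries in both comparisons. Tafa1, a secreted factor and a leading gene of cluster 3, was at 611 and 328 CPM contra and 190 and 90.4 CPM ipsi (-2.0 ± 0.32, edgeR adjusted p = 0.000363), and Ptchd4, a patched-domain protein, at 142 and 125 CPM contra and 66.5 and 27.1 CPM ipsi (-1.84 ± 0.39, edgeR adjusted p = 0.0191).

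Single nuclei held large shares of the UMIs of Tafa1, Tmem117 and Bcas1 in some libraries, which was not so for every gene called here. For Tafa1, 1 nucleus held 71 of the 185 UMIs in mMCAO contra and 1 nucleus 10 of the 20 in mMCAO ipsi. Tmem117, a membrane protein, was at 82.5 and 77.7 CPM contra and 162 and 259 CPM ipsi (1.5 ± 0.28, edgeR adjusted p = 0.0029), and 41 of its 86 UMIs in sMCAO ipsi lay in 1 nucleus, while its 17 UMIs in mMCAO ipsi were spread over 15 nuclei. Bcas1, a myelin lineage gene and a leading gene of cluster 5, was at 122 and 229 CPM contra and 85.5 and 42.2 CPM ipsi (-1.66 ± 0.36, edgeR adjusted p = 0.0262), and 1 nucleus held 26 of its 37 UMIs in mMCAO contra, and 1 nucleus 39 of its 53 UMIs in sMCAO contra. Without sMCAO ipsi, Tmem117 (1.01), Nwd2 (-2.87), Tafa1 (-1.32), Ptchd4 (-1.0), Bcas1 (-0.98) and Cdh12 (-1.15) were not called, and without mMCAO contra neither Nwd2 (-2.33) nor Ptchd4 (-1.68) was. Without sMCAO contra, Ptchd4 (-1.89) and Bcas1 (-1.14) were not called. Without predicted doublets the same 6 genes were not called either, at 0.75 for Tmem117, -2.28 for Nwd2, -0.81 for Tafa1, -1.45 for Ptchd4, -1.21 for Bcas1 and -0.74 for Cdh12. With the pool of rats as a block, 25 genes were called, 6 higher and 19 lower, including all 10.

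The contralateral hemisphere was compared with Sham as the uninjured side of stroke rats, with the same Sham libraries as above. In that test 3 of 3713 genes passed (0.0808%), while 206 had an unadjusted p under 0.05. Dpp10 was lower (-0.91 ± 0.18, edgeR adjusted p = 0.0288), with the 4 values given above, and was not called without Sham R (-0.48), mMCAO contra (-0.98) or sMCAO contra (-0.75), nor without predicted doublets (-1.06). Bcas1 was higher (3.14 ± 0.64, edgeR adjusted p = 0.0288), from 2 and 1 UMIs in Sham to 37 and 53 UMIs contra, most of which lay in the 2 nuclei named above, and was not called without Sham L (2.76) or sMCAO contra (2.69), without predicted doublets (2.30) or with at least 3 selection UMIs (0.55). Gpc5 passed the test (-1.81 ± 0.29, edgeR adjusted p = 0.00136), but its groups overlapped, since sMCAO contra (397 CPM) exceeded Sham R (346 CPM).

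Whether the nuclei responded differently from medium spiny neurons was tested as the difference between 2 fold changes, ipsilateral MCAO against Sham in these nuclei and the same in D2 or D1 nuclei. Against D2 nuclei, 6 of 7095 genes passed (0.0846%), and against D1 nuclei 8 of 4954 (0.161%). Simulated 4-fold differences were recovered in 28% and 27% of cases, and without Sham L none of the 8 differences from D1 nuclei was called. DESeq2 called none of the 6 and 1 of the 8, that of Gpc5. In the D2 test Erbb4 had the smallest adjusted p: D2 nuclei held 667 and 726 CPM in Sham, 479 and 495 CPM contra and 342 and 180 CPM ipsi, while Tshz1/Casz1/Chst9/Otof nuclei held 7283 and 9512 CPM in Sham and 9444 and 10620 CPM ipsi. The difference was 1.81 ± 0.24 on the log2 scale (edgeR adjusted p = 6.79e-06) and passed in edgeR without any 1 of the libraries. Nuclei with glutamate transporters, in which Erbb4 is not a marker, held 167 and 170 CPM in Sham, 162 and 249 CPM contra and 85.2 and 131 CPM ipsi.

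Grm8 also differed from D2 nuclei, in which its own change was not called (-0.77, edgeR adjusted p = 0.247). It was at 1533 and 2398 CPM in Sham, 1852 and 1968 CPM contra and 2328 and 2751 CPM ipsi in Tshz1/Casz1/Chst9/Otof nuclei and at 330 and 340, 323 and 422, and 291 and 117 CPM in D2 nuclei, a difference of 1.33 ± 0.30 (edgeR adjusted p = 0.047). It was not called without either Sham library (1.16 without Sham L, 1.57 without Sham R), without sMCAO contra (1.40) or without sMCAO ipsi (0.61), nor in cluster 1 alone (1.55). Il1rapl2, a synaptic adhesion protein of the interleukin 1 receptor family, was at 387 and 320 CPM in Sham, 287 and 509 CPM contra and 266 and 416 CPM ipsi in these nuclei. It was at 589 and 426 CPM in Sham, 660 and 315 CPM contra and 152 and 52.8 CPM ipsi in D1 nuclei. In D2 nuclei it was at 294 and 359 CPM in Sham, 120 and 58.8 CPM contra and 91.9 and 23.9 CPM ipsi, so that it was low contralaterally too, and the ipsilateral against contralateral change was not called (-0.76, edgeR adjusted p = 0.532). The difference was 2.62 ± 0.49 from D1 (edgeR adjusted p = 0.00527) and 2.65 ± 0.46 from D2 nuclei (edgeR adjusted p = 0.00213), and both were lost without Sham R (2.61 and 2.46), without sMCAO ipsi (1.40 and 1.37) and in cluster 1 alone (0.17 and 0.54).

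For Ptprd the difference from D1 nuclei was negative. D1 nuclei held 4264 and 5775 CPM in Sham, 4369 and 4837 CPM contra and 5815 and 4090 CPM ipsi, so that their groups overlapped, and the fold change in the Tshz1/Casz1/Chst9/Otof nuclei was lower by -1.22 ± 0.26 (edgeR adjusted p = 0.0157). Without Sham L (-1.19), Sham R (-1.34) or mMCAO ipsi (-0.88) this difference was not called, nor in cluster 1 alone (-0.43), and the difference from D2 nuclei did not pass (-0.93, edgeR adjusted p = 0.0639). Dpp10 was at 2549 and 4496 CPM in Sham, 1550 and 1682 CPM contra and 1745 and 982 CPM ipsi in D1 nuclei, where it was called lower ipsilaterally against Sham (-1.36, edgeR adjusted p = 0.0241) but not against the contralateral side (-0.27, edgeR adjusted p = 0.823). D2 nuclei held 3142 and 4482 CPM of Dpp10 in Sham, 1560 and 1584 CPM contra and 1911 and 538 CPM ipsi, which missed the threshold against Sham (-1.68, edgeR adjusted p = 0.059).

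**Figure D5:**
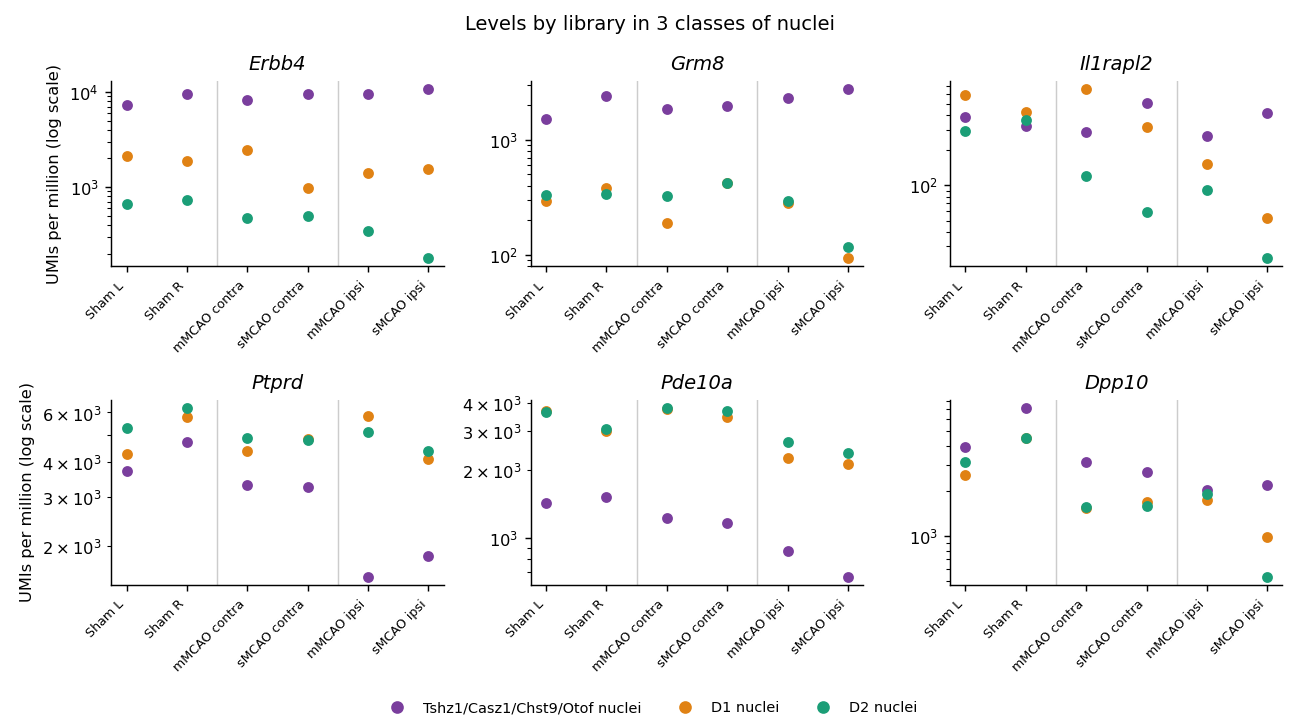
Level in CPM (log axis) of 6 genes in each library in Tshz1/Casz1/Chst9/Otof nuclei (purple), D1 nuclei (orange) and D2 nuclei (green). For Erbb4 and Grm8 the D2 points are lowest in sMCAO ipsi (180 and 117 CPM) while the purple points are highest there, and for Ptprd the purple points of the ipsilateral libraries (1558 and 1838 CPM) lie apart from the D1 and D2 points.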

How the data were processed

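Single-nucleus libraries were made with a 10x Genomics 5′ kit. The deposited files hold raw UMI counts per gene and nucleus, made by the authors with Cell Ranger 7.0.0 on mRatBN7.2 with intronic reads, before their removal of ambient RNA and doublets. The 6 files held 33012945 to 52513380 UMIs each. Groups came from the sample labels (Sham, MCAO contra and MCAO ipsi, 2 libraries each), where Sham replicate 1 is Sham L and MCAO replicate 1 is mMCAO. No further per-sample column was found (0 left unused).

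The nuclei, marker lists and function lists were chosen with earlier results of these data known. UMIs were summed per library and tested in edgeR 4.0.16 (quasi-likelihood, TMM, filterByExpr, all 3 groups in 1 fit with 3 residual degrees of freedom; Benjamini-Hochberg over all genes tested), and the differences from D1 and D2 nuclei as an interaction with library as a covariate. Rule and gate genes were left out of tests of the differences. Genes were called at an adjusted p under 0.05 and a log2 fold change of at least 0.6. Named genes were the 10 largest and 10 smallest folds in ipsilateral MCAO against Sham (5 and 5 in the other comparisons) among called genes whose name was not an identifier of the LOC, ENSRNOG, AABR, RGD or AC kind (names of the AY kind were kept), with at least 50 CPM in the higher group and groups that did not overlap. Clusters were found with Leiden (leidenalg 0.10.2, resolution 0.6) on 20 components of 1500 genes without the rule genes. Doublets were scored by simulation and the top 5% of each library marked. The edgeR and DESeq2 (1.42.0) fits were tested on simulated data with 200 changed genes. Alternatives are given in the closing section.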

Additional observations from a re-analysis of the deposited data

Results flagged for a closer look

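The results of this section are genes whose fold change in ipsilateral MCAO against Sham differed between Tshz1/Casz1/Chst9/Otof nuclei and D2 or D1 nuclei in the edgeR test of the difference itself, on the log2 scale. From D2 nuclei, Il1rapl2 differed by 2.65, Zmat4 by 2.09, Erbb4 by 1.81, Grm8 by 1.33, Gpc5 by -2.28 and Cdh12 by -1.31. From D1 nuclei, Grik3 differed by 4.05, Ankfn1 by 3.39, Kcnip1 by 3.21, Il1rapl2 by 2.62, Trhde by 2.45, Gpc5 by -3.38, Cdh12 by -1.42 and Ptprd by -1.22.

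None of the genes with positive differences was called in the Tshz1/Casz1/Chst9/Otof nuclei. In the spiny class, edgeR called Il1rapl2 lower in D1 (adjusted p = 0.00756) and D2 nuclei (adjusted p = 0.0141), Zmat4 and Erbb4 in D2 nuclei (adjusted p = 0.0141 each) and Kcnip1 in D1 nuclei (adjusted p = 0.0164), but not Grik3 (adjusted p = 0.0797), Ankfn1 (0.0532) or Trhde (0.139) in D1 nuclei or Grm8 (0.247) in D2 nuclei. Zmat4, a zinc finger gene, was at 158 and 133 CPM in Sham and 314 and 205 CPM ipsi in these nuclei and at 140 and 183 CPM and 71.5 and 52.3 CPM in D2 nuclei, and its difference was not called without Sham R (1.90). Grik3, a kainate receptor subunit, was at 134 and 160 CPM in Sham and 105 and 124 CPM ipsi, while D1 nuclei went from 12 and 3 UMIs in Sham to 1 and 1 UMIs ipsi. Ankfn1 was at 166 and 240 CPM in Sham and 181 and 178 CPM ipsi, and D1 nuclei held 13 and 5 UMIs in Sham and 2 and 3 ipsi. Kcnip1, which modulates potassium channels, was at 103 and 79.9 CPM in Sham and 57.0 and 124 CPM ipsi, and D1 nuclei held 29 and 4 UMIs in Sham and 4 and 7 ipsi. These 3 differences rest on few UMIs of D1 nuclei. Trhde, an enzyme that degrades thyrotropin-releasing hormone, was at 205 and 213 CPM in Sham and 371 and 292 CPM ipsi, against 156 and 107 CPM and 37.0 and 42.6 CPM in D1 nuclei.

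The negative differences were in genes lower in the Tshz1/Casz1/Chst9/Otof nuclei. Cdh12 was at 881 and 1194 CPM in Sham and 623 and 611 CPM ipsi in D2 nuclei and at 469 and 618 CPM and 481 and 276 CPM in D1 nuclei. Its difference from D2 nuclei stayed called without mMCAO ipsi (-1.46) and was not called when any other library was left out (-0.92 without sMCAO ipsi, the smallest). Gpc5 was at 207 and 418 CPM in Sham and 397 and 95.6 CPM ipsi in D2 nuclei and at 276 and 149 CPM and 383 and 233 CPM in D1 nuclei. Without Sham L, the library in which 1 nucleus held 123 of 207 UMIs, the difference of Gpc5 from D2 nuclei was 0.13 and that from D1 nuclei -2.24, and neither was called.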

How the results depend on the processing

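The alternatives changed 1 choice at a time, except that thinning to 2000 UMIs also left out shallower nuclei. Chosen after seeing the data were those on transporter UMIs, nuclei of at least 2000 UMIs without thinning and the deepest nuclei. So were those on the Mbp and Bcas1 cluster and on at least 3 selection UMIs for the gene counts. The ratio of the ipsilateral share to Sham (2.41) was 1.33 with at least 3 selection UMIs, 5.32 with at least 8, 4.63 among neurons and 4.66 among nuclei of at least 2000 UMIs, and 1.27 to 3.77 with 1 library left out. The contralateral ratio (3.04) was 1.83 with at least 3 selection UMIs, 3.41 with at least 8, 2.71 without predicted doublets, 3.32 among neurons, 3.67 among nuclei of at least 2000 UMIs, and 2.23 to 4.76 with 1 library left out. All of these ratios lay above 1.

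Counts of called genes depended on the setting. In ipsilateral MCAO against Sham (18), DESeq2 gave 10, at least 8 selection UMIs 0 of 621 tested, cluster 1 alone 5 of 1006 tested, at least 3 selection UMIs 81 (26 higher and 55 lower, 12 of the 18 among them), and leaving out the cluster led by Mbp and Bcas1 31; 1 library left out gave 7 to 37. In ipsilateral against contralateral MCAO (10), DESeq2 gave 4, no filter on low counts 30, no predicted doublets 4, at least 8 selection UMIs 2, cluster 1 alone 2, leaving out the cluster led by Mbp and Bcas1 21 and the rat pool as replicate block 25; 1 library left out gave 8 to 35. In contralateral MCAO against Sham (3), DESeq2 and at least 8 selection UMIs gave 0 each, at least 3 selection UMIs 1, leaving out the cluster led by Mbp and Bcas1 1 and leaving out the deepest nuclei 5; 1 library left out gave 1 to 6. For the differences from D2 nuclei (6), DESeq2 gave 0, and 1 library left out gave 3 to 33. For those from D1 nuclei (8), DESeq2 gave 1, no filter 17 and cluster 1 alone 4, and 1 library left out gave 0 to 17. Beyond the settings that removed samples, nuclei or genes, the cause was not tested.

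The 13 genes named in ipsilateral MCAO against Sham kept their sign in every alternative that could be fitted, and none kept its call in all of them. AY172581.24 and AY172581.9 kept their call against contralateral MCAO in all. Signs turned for Cdh12 against contralateral MCAO in cluster 1 alone (0.0577), for Gpc5 against D2 nuclei with at least 3 selection UMIs (0.0094) and without Sham L (0.13; -3.60 to 0.13 with 1 library left out), and for Cdh12 against D2 nuclei in cluster 1 alone (0.032) and with at least 3 selection UMIs (0.0405). The correlation of deviations between mMCAO contra and mMCAO ipsi was -0.01, but with 2 pools it could not show pairing. The deepest nucleus gave 12.6% of the UMIs in Sham L and in mMCAO ipsi, 10.5% in Sham R and 4.00% to 4.61% in the others. Where an arm was left with 1 library, that library was assumed to vary like the other groups.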
